A study of Mus musculus with 2 samples.

Results

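The genes described here are the chondroitin sulfate proteoglycans and tenascins of the brain matrix, with the link protein that holds them to hyaluronan: Vcan, Ncan, Bcan, Acan, Cspg4, Cspg5, Ptprz1, Tnr, Tnc and Hapln1. They were chosen by symbol, 10 of the 55450 genes in the tables. The study examined how preterm white matter injury (WMI) acts on oligodendrocyte (OL) development in the mouse. One control and 1 WMI library of C57BL/6 cerebral cortex were sequenced with barcoded droplets, in which each RNA molecule carries a unique molecular identifier (UMI) and is counted once. Per the labels, the right common carotid artery of WMI mice was ligated at P7 with 1 h of hypoxia, and the cortex of the ligated side, or of the same side in the control group, was taken at P14 (2 weeks). Surgery at P7 and 1 h of hypoxia are listed for both libraries, so what the control mice underwent is not settled here. The paper gives earlier days for surgery and sampling and a longer hypoxia. It describes the control tissue as the control side in its results and speaks of sham hemispheres in a figure legend. The labels speak of nuclei and the paper of dissociated cells.

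Lecticans (Vcan, Ncan, Bcan, Acan) are large proteoglycans that bind hyaluronan at one end and tenascins at the other, and Hapln1 clamps their bond with hyaluronan. Cspg4 (NG2), Cspg5 and the receptor phosphatase Ptprz1 sit in the membrane and carry chondroitin sulfate, while Tnr and Tnc are extracellular glycoproteins that crosslink lecticans. Progenitors, astrocytes and neurons deposit this matrix, it forms the perineuronal nets of maturing interneurons, and its chondroitin sulfate chains hinder process outgrowth of OL precursors after injury.

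The control library kept 8755 cells (median 4399 UMIs) and the WMI library 7571 (median 5046) after filters and doublet removal. Median mitochondrial shares were 0.0611% and 0.448%, and 36 barcode sequences occurred in both libraries, 27 of them among kept cells. Clusters were named from markers that held none of the 10 genes, and the genes were also left out of the clustering. Cells with a UMI of Xist, a transcript of the inactive X chromosome, were 63.0% of WMI OPC-like cells and 0 of 303 control OPC-like cells, which allows a share of up to 0.990%. The control library thus held almost no cells with Xist and the WMI library many, so the sex of the mice and the injury cannot be told apart where all cells are compared. With 1 library per group no test was possible: ratios between libraries are descriptions of these libraries, and all intervals are 95% intervals for counting error only. Levels are given as CPM, the UMIs of a gene in the cells of a class per 1000000 UMIs of all genes in these cells. As 3′ counts carry no common scale between genes, each gene is compared with itself.

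OL precursor cell (OPC)-like cells numbered 303 in the control and 476 in the WMI library and carried 8 of 8 marker genes. Premyelinating (pre-OL-like) cells numbered 152 and 425, with 8 of 8 markers, and mature OL-like cells 91 and 51, with 9 of 9. Astrocyte-like cells numbered 482 and 626, interneuron-like cells 470 and 380, and fibroblast-like cells 56 and 69. Microglia-like cells (429 and 1095) were taken as a class that should lack these genes and served as the measure of free RNA in the droplets. There Tnr reached 284 CPM in the control and 419 CPM in the WMI library, a log2 ratio of 0.56 (0.40 to 0.72), and Ptprz1 186 and 216 CPM. Hence the Tnr level of this class was itself higher in the WMI library. Levels near those of microglia-like cells are not read as expression. The 3 richest cells held 19.1% of the control and 3.74% of the WMI Tnr UMIs, and without them the levels were 234 and 407 CPM. With the libraries merged without integration, microglia-like cells formed a cluster of 24 control and 1367 WMI cells and another of 404 and 35. Whether free RNA alone set these Tnr levels was not tested. Microglia-like cells had medians of 3099 and 3107 UMIs, against 8102 and 8197 in mature OL-like and 9486.5 and 8449 in interneuron-like cells. Excitatory neuron-like cells had 3701.5 and 9394. Free RNA at those depths was not measured, and the microglia-like level may exceed the background of deeper cells. A level near it therefore does not show that a gene is absent.

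The genes are spread over 8 chromosomes (GENCODE M21, GRCm38). Tnr (ENSMUSG00000015829) spans 408 kb of chr1:159523769-159931729 on the plus strand and overlaps 2 genes of its own strand. Vcan (chr13:89655312-89742509, minus strand) and Hapln1 (chr13:89539796-89611652, plus strand) are neighbours with 43.7 kb between them. Cspg4 lies at chr9:56865033-56899870 and Cspg5 at chr9:110243783-110262576, both on the plus strand. Bcan lies at chr3:87987531-88000230, Tnc at chr4:63959785-64047015, Ptprz1 at chr6:22875502-23052916, Acan at chr7:79053483-79115099 and Ncan at chr8:70093085-70120873. RefSeq promoter sequence (GRCm38.p6, 250 bases before to 50 after a start) was at hand for 9 of the 10 genes. The promoters of 3 genes are shown, since the genes follow different courses over the OL stages: highest in pre-OL-like cells (Tnr), much lower after the OPC-like stage (Cspg4), and high in both early stages (Vcan). They lie at chr1:159523519-159523818 (plus strand), chr9:56864854-56865153 (plus strand) and chr13:89742463-89742762 (minus strand), written 5′ to 3′ along the gene.
Tnr: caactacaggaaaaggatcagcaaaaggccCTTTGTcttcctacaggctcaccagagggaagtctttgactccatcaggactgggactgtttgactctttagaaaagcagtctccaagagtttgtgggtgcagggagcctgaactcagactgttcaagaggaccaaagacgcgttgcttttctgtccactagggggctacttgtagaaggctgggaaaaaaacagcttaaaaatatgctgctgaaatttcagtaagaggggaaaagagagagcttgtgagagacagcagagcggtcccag
Cspg4: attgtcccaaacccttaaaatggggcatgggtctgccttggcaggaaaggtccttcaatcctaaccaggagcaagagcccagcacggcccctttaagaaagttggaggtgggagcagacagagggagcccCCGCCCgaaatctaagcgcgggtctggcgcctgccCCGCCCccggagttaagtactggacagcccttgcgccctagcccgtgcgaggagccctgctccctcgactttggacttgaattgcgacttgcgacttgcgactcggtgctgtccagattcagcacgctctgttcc
Vcan: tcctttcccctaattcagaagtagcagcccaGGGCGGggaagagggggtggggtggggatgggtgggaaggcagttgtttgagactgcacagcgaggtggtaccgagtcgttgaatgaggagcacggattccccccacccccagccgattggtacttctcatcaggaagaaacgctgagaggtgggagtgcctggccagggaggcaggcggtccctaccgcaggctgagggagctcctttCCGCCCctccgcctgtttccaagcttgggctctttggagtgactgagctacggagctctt
Capitals mark matches on either strand of 4 motifs: the SOX core ACAAAG, the E-box CAGCTG, the TATA box TATAAA and the GC box CCGCCC. The Tnr window held 1 ACAAAG, which 18.7% of the 32851 promoters in the table hold, and none of the other motifs. The Cspg4 and Vcan windows held 2 GC boxes each, a motif found in 35.7% of promoters, and no ACAAAG. The E-box (16.3% of promoters) and the TATA box (13.6%) were in none of the 3 windows. A match of letters is a description and not a binding site.

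All 7 genes with at least 50 UMIs in the OL lineage of each library (Vcan, Ncan, Bcan, Cspg4, Cspg5, Ptprz1 and Tnr) were past 2-fold lower in mature OL-like than in OPC-like cells in both libraries, and 0 were past 2-fold higher. Of all 7607 genes measured at that depth, 15.5% were past 2-fold lower in both libraries and 8.98% past 2-fold higher. The stages are cut from the same cells, so this is a description of the stages. Ncan is part of this count although its control OPC-like level (63.4 CPM) was near the 53.6 CPM of microglia-like cells. Its mature OL-like levels (26.6 and 24.7 CPM) were below the microglia-like 53.6 and 43.9 CPM. Mature OL-like cells were also deeper, with medians of 8102 and 8197 UMIs against 4919 and 4312 in OPC-like cells. The part of free RNA and depth in the drop of Ncan was not tested. From OPC-like to pre-OL-like cells the genes parted: 3 of 7 (Cspg4, Cspg5, Ptprz1) were past 2-fold lower in both libraries and 1 (Tnr) past 2-fold higher, beside 5.43% and 5.07% of all genes. Acan, Hapln1 and Tnc had too few UMIs in the lineage of at least 1 library to be counted (49, 28 and 26 UMIs in the control).

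**Figure D1:**
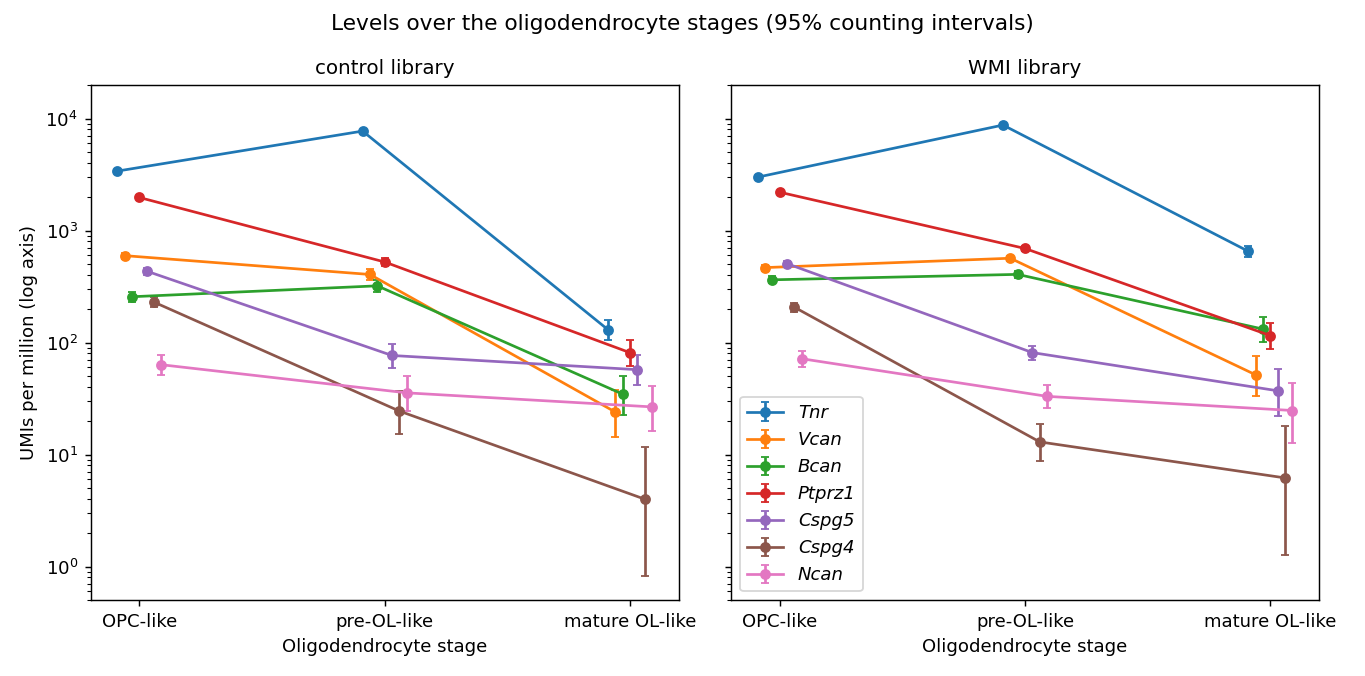
Levels of the 7 genes with enough UMIs in OPC-like, pre-OL-like and mature OL-like cells, in CPM on a log axis, with 95% counting intervals, for the control library (left) and the WMI library (right). Tnr peaks at the pre-OL-like stage in both libraries (7743 and 8766), Cspg4 drops after the OPC-like stage, and every line ends lower at the mature stage than it began.

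Tnr, the tenascin of perineuronal nets and nodes of Ranvier, stood at 3400.4 CPM in control and 3002 CPM in WMI OPC-like cells, and at 7743 and 8766 CPM in pre-OL-like cells. The log2 ratio of this step was 1.19 (1.14 to 1.24) for control and 1.55 (1.51 to 1.59) for WMI cells. In mature OL-like cells it was 131 CPM in the control, below the 284 CPM of microglia-like cells, and 654 CPM in the WMI library, above the 419 CPM there. Without the 3 richest of the 51 WMI cells, however, the mature OL-like level was 386 CPM, below that of microglia-like cells. After each cell was thinned to 1000 UMIs, 98.7% (95.3 to 99.8) of control and 99.1% (97.6 to 99.7) of WMI pre-OL-like cells held a Tnr UMI. The median pre-OL-like cell held 7 Tnr UMIs of 1000 in the control and 8 in the WMI library, against 3 and 2 for OPC-like cells. Nearly every pre-OL-like cell thus held Tnr, with only 6.23% and 2.76% of the UMIs in the 3 richest cells of each library. Most OPC-like cells held it as well, with lower quartiles of 2 and 1 UMIs. The lower quartiles of pre-OL-like cells were 4 and 5, against upper quartiles of 4 and 4 for OPC-like cells. Single OPC-like cells held up to 12 in each library, so the cells of both stages overlapped.

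Vcan, the versican gene, was 598 CPM (561 to 637) in control and 467.5 CPM (440 to 497) in WMI OPC-like cells. In pre-OL-like cells it was 406 CPM (365 to 450) in the control and 567 CPM (536 to 599) in the WMI library. The early order therefore differed by library: the control was highest at the OPC-like stage (log2 ratio to pre-OL-like cells -0.56, -0.74 to -0.38) and the WMI library at the pre-OL-like stage (0.28, 0.16 to 0.40). At the mature stage it was 24.0 CPM in the control, below the 55.0 CPM of microglia-like cells, and 51.5 CPM in the WMI library, near the 54.6 CPM there. Bcan, the brain-specific lectican brevican, was 257 and 364 CPM in OPC-like cells and 321 and 407 CPM in pre-OL-like cells, then 34.6 and 132 CPM in mature OL-like cells. Unlike the membrane proteoglycans, Bcan was not lower in pre-OL-like than in OPC-like cells in either library (log2 ratio 0.32, 0.10 to 0.54, and 0.16, 0.02 to 0.30). Ncan, neurocan, was low in the lineage, at 63.4 and 71.8 CPM in OPC-like cells against 53.6 and 43.9 CPM in microglia-like cells.

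Cspg4, which codes for the NG2 proteoglycan by which OPCs are known, had the largest drop of the 7 genes from OPC-like to pre-OL-like cells in both libraries. It was 230 CPM (207 to 254) in control and 207 CPM (188 to 226) in WMI OPC-like cells, and 24.5 and 12.97 CPM in pre-OL-like cells. These were log2 ratios of -3.23 (-3.92 to -2.61) and -3.99 (-4.59 to -3.45). Thinned shares of cells with a UMI went from 20.1% and 17.0% to 1.97% and 1.18%, against 0.466% and 1.55% of microglia-like cells. The WMI pre-OL-like level was thus not above that of microglia-like cells in that library (18.8 CPM). The control pre-OL-like level was 3.11-fold that of microglia-like cells (7.86 CPM). Between the libraries, the microglia-like level of Cspg4 was itself 2.39-fold higher in the WMI library (log2 ratio 1.26, 0.33 to 2.32). Cspg5, neuroglycan C, dropped at the same step from 435 and 507 CPM to 76.7 and 81.4 CPM, at or under the 91.5 and 119 CPM of microglia-like cells. Ptprz1, the phosphatase that binds pleiotrophin and tenascins, was 1976 and 2203 CPM in OPC-like cells, 525 and 692 CPM in pre-OL-like cells and 81.3 and 115 CPM in mature OL-like cells. Its pre-OL-like level was still 2.82-fold and 3.21-fold that of microglia-like cells. Acan, aggrecan, was low and highest in OPC-like cells, with 40 UMIs (24.6 CPM) in the control and 26 UMIs (11.6 CPM) in the WMI library. Microglia-like cells held 0 and 5 UMIs of Acan, and the control's 0 allows up to 2.14 CPM.

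Counted per cell after thinning, OPC-like cells held UMIs of 3.05 of the 10 genes on average in the control and 3.01 in the WMI library. Pre-OL-like cells held 2.2 and 2.25, mature OL-like cells 0.341 and 0.51, and astrocyte-like cells 2.04 and 2.26. Microglia-like cells, with 0.662 and 0.887, held more of them than mature OL-like cells did in either library.

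**Figure D2:**
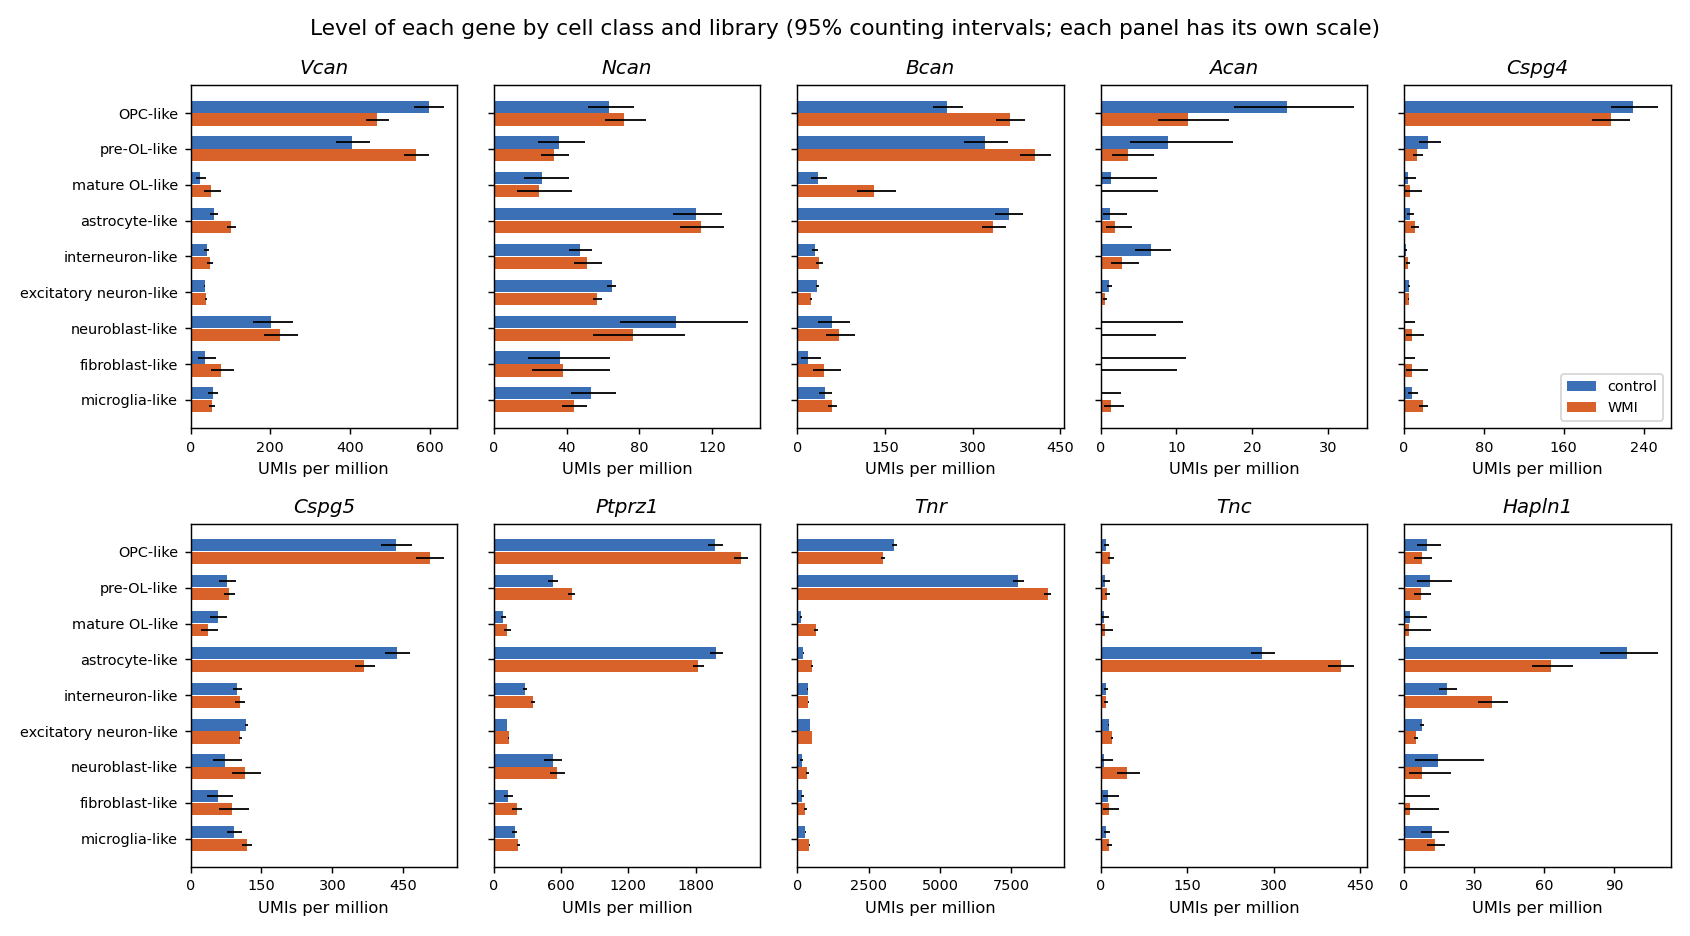
Level of each gene in 9 cell classes, in CPM from 0, with a bar for the control (blue) and the WMI library (orange) and 95% counting intervals as black lines; each panel has its own scale. Cspg4 stands out in OPC-like cells, Tnr in pre-OL-like and OPC-like cells, Tnc and Hapln1 in astrocyte-like cells, and the fibroblast-like bars stay near those of microglia-like cells.

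Between the libraries, the level of the 9 genes with at least 50 UMIs in OPC-like cells over both libraries was past 1.5-fold for 2, Acan lower and Tnc higher in the WMI library. Over all 8391 genes at that depth 12.2% were past 1.5-fold, and the median log2 ratio was 0.157 over the 9 genes and 0.0483 over all. Acan was 24.6 CPM in the control and 11.6 CPM in the WMI library, a log2 ratio of -1.09 (-1.86 to -0.34). In excitatory neuron-like cells Acan had 50 and 17 UMIs (1.13 and 0.51 CPM), a log2 ratio of -1.15 (-2.04 to -0.34). The WMI level was below the 1.31 CPM of microglia-like cells, so that ratio is not read as expression. The clusters of the excitatory class were also shared unevenly: cluster 0 had 2279 control and 166 WMI cells, and cluster 3 had 1187 and 20. The part of this makeup in the ratio was not tested. Astrocyte-like cells, with 3 and 6 UMIs, and microglia-like cells, with 0 and 5, had too few for a ratio. Tnc (9.24 and 16.9 CPM, log2 ratio 0.87, -0.02 to 1.84) was at the level of microglia-like cells (9.29 and 14.6 CPM), so its ratio is not read as expression. The abundant genes moved little: Bcan had a log2 ratio of 0.50 (0.33 to 0.68), Cspg5 0.22 (0.08 to 0.36) and Ptprz1 0.16 (0.09 to 0.22). Vcan, at -0.35 (-0.48 to -0.23), and Tnr, at -0.18 (-0.23 to -0.13), were lower in the WMI library, and Cspg4 had a log2 ratio of -0.15 (-0.35 to 0.05). In cells with a Y-linked UMI and none of Xist (244 and 124 cells), 0 genes with enough UMIs were past 1.5-fold. Acan and Tnc, at log2 ratios of -0.87 and 1.43 in those cells, had fewer than 50 UMIs there.

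In pre-OL-like cells 1 of 7 genes was past 1.5-fold, against 16.5% of 7508 genes. This was Cspg4, with 24.5 and 12.97 CPM (log2 ratio -0.91, -1.76 to -0.05) and only 22 and 29 UMIs. Higher in the WMI library, with intervals above 0, were Vcan at a log2 ratio of 0.48 (0.31 to 0.65), Ptprz1 at 0.40 (0.25 to 0.55), Bcan at 0.34 (0.15 to 0.54) and Tnr at 0.18 (0.14 to 0.22). The median over all genes was 0.0522. The makeup of the class moved as well: the 8 OPC markers summed to 1433 CPM in control and 2221 CPM in WMI pre-OL-like cells, and the 9 mature OL markers to 4446 and 3542 CPM. Their part in these ratios was not tested.

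For Tnr, the lineage as a whole hides these stages. With the stages summed, Tnr was 3844 CPM in the control and 5369 CPM in the WMI library (log2 ratio 0.48, 0.45 to 0.51), while it was lower in WMI OPC-like cells and only 1.13-fold higher in pre-OL-like cells. Pre-OL-like cells were 27.8% (24.1 to 31.8) of 546 control and 44.6% (41.5 to 47.9) of 952 WMI lineage cells, and they hold the highest Tnr level. Mature OL-like cells, with the lowest, were 16.7% (13.6 to 20.1) and 5.36% (4.01 to 6.98). Bcan differed from Tnr: its lineage log2 ratio was 0.69 (0.56 to 0.81), and its WMI level was higher at each stage. Vcan, at 0.19 (0.09 to 0.29) over the lineage, was lower in WMI OPC-like and higher in WMI pre-OL-like cells. In bulk RNA of the lineage, a change in cell numbers and a change in RNA per cell could not be told apart.

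Mature OL-like cells showed 3 of 4 genes past 1.5-fold, against 22.6% of 3733 genes: Tnr and Bcan higher and Cspg5 lower in the WMI library. Tnr was 131 CPM (106 to 159) and 654 CPM (584 to 730), a log2 ratio of 2.32 (1.99 to 2.67), and Bcan 34.6 CPM (22.6 to 50.8) and 132 CPM (102 to 169), a ratio of 1.93 (1.25 to 2.65). Both WMI values rested on few cells, since 3 of the 51 cells held 44.5% of the Tnr and 43.8% of the Bcan UMIs. Without the 3 richest cells of each library the log2 ratios were 1.67 and 1.52. The WMI level of Tnr was then 386 CPM, below the 419 CPM of microglia-like cells. With the libraries merged without integration, the ratio of Bcan was 0.13, no longer past 1.5-fold, and that of Tnr 0.97. The 8 pre-OL markers, too, were higher in the WMI cells of this class, at 4126 CPM against 1913 CPM, and their part was not tested. Cells with a Y-linked UMI and none of Xist were 84 and 15, and there 1 gene was past 1.5-fold. Cspg5 (57.3 and 37.1 CPM) was below the microglia-like level in both libraries, and its ratio of -0.63 was within 1.5-fold with doublets kept (-0.54), with median-ratio size factors (-0.56) and as the mean of each cell's own CPM (-0.08).

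**Figure D3:**
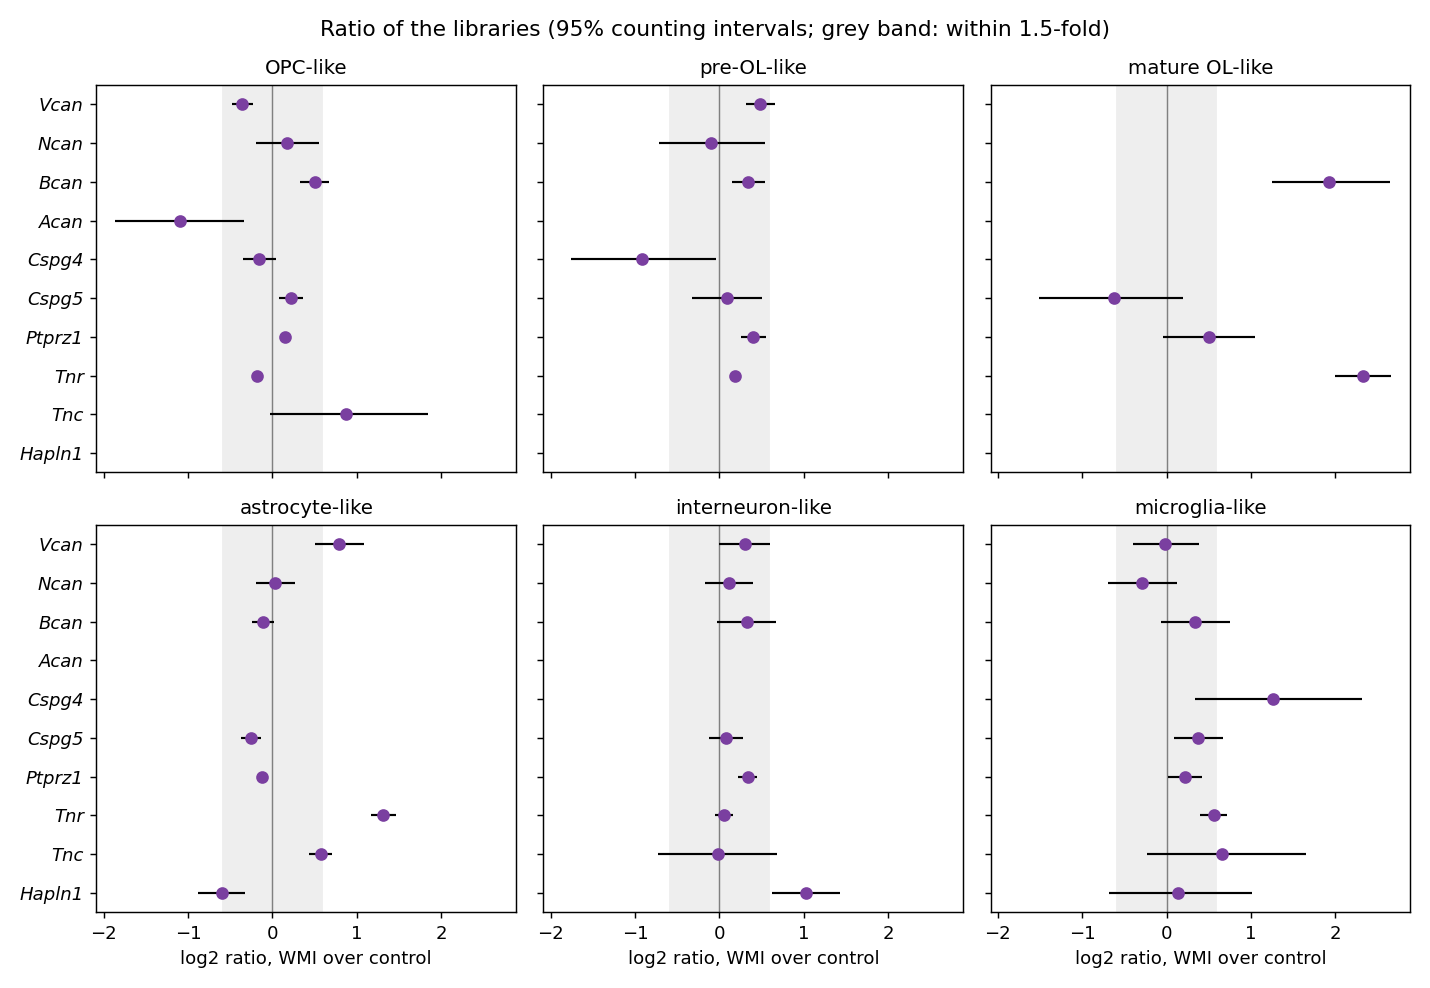
Log2 ratio of the WMI to the control level for genes with at least 50 UMIs in a class, with 95% counting intervals, in 6 cell classes; the grey band marks ratios within 1.5-fold. Most ratios of the OPC-like and pre-OL-like classes lie inside the band. Tnr lies at 2.32 in mature OL-like and 1.32 in astrocyte-like cells. It lies at 0.56 in microglia-like cells, which were taken as the measure of free RNA.

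Astrocyte-like cells carried the highest level of Tnc and Hapln1 of the 9 classes in both libraries. Tnc, the tenascin of germinal zones and reactive glia, was 280.0 CPM (260 to 302) in the control and 416 CPM (394 to 440) in the WMI library, 30.1-fold and 28.5-fold the level in microglia-like cells. Hapln1 was 95.8 CPM and 63.2 CPM, 7.88-fold and 4.75-fold that level. Ptprz1 (1984 and 1824 CPM), Cspg5 (438 and 368 CPM) and Bcan (362 and 335 CPM) shared their upper ranks with the OL lineage. In the control each was highest in astrocyte-like cells, with an interval that overlapped that of the next class, OPC-like cells for Ptprz1 and Cspg5 and pre-OL-like cells for Bcan. In the WMI library Ptprz1 and Cspg5 were highest in OPC-like cells, with no overlap, and Bcan in pre-OL-like cells. Ncan was 112 and 114 CPM, with neuroblast-like cells next (99.98 and 76.8 CPM, overlapping intervals).

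Of 8 genes with enough UMIs in astrocyte-like cells, 3 were past 1.5-fold between the libraries, against 21.4% of 10475 genes. Tnr was 207 CPM in the control and 516 CPM in the WMI library, a log2 ratio of 1.32 (1.17 to 1.46). The control level was under the 284 CPM of microglia-like cells and the WMI level 1.23-fold the 419 CPM there. The part of free RNA in these values was not tested. Vcan was 59.0 and 102 CPM (log2 ratio 0.79, 0.51 to 1.08), 1.07-fold and 1.87-fold the microglia-like level. Hapln1 was lower in the WMI library at a log2 ratio of -0.60 (-0.88 to -0.32). Tnc, at 0.57 (0.44 to 0.71), was just under 1.5-fold. Within 1.5-fold, Ptprz1 (-0.12, -0.18 to -0.07) and Cspg5 (-0.25, -0.37 to -0.13) were lower in the WMI library, and Ncan differed least (0.03, -0.20 to 0.26).

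The class held 2 clusters that were not shared evenly. Cluster 8 had 405 control and 332 WMI cells, and cluster 13, led by Gfap and A2m, had 77 and 294. In the control, Tnc was 210 CPM in cluster 8 and 719 CPM in cluster 13, whereas in the WMI library both were alike at 404 and 433 CPM. Within cluster 8 Tnc was thus higher in the WMI library (log2 ratio 0.94, 0.77 to 1.12) and within cluster 13 lower (-0.73, -0.95 to -0.51). Ncan went the same way, with 96.4 and 132 CPM in cluster 8 (0.45, 0.17 to 0.72) and 206 and 90.2 CPM in cluster 13 (-1.19, -1.63 to -0.75). Tnr and Vcan were higher in the WMI library in both clusters, Tnr at 1.13 (0.95 to 1.32) and 0.78 (0.52 to 1.04), and Vcan at 0.67 (0.33 to 1.03) and 0.64 (0.03 to 1.29). The Tnr level in cluster 8 was 175 and 384 CPM, below the 284 and 419 CPM of microglia-like cells. In cluster 13 it was above them, at 407 and 697 CPM. Hapln1 was 103.5 and 89.1 CPM in cluster 8 (-0.22, -0.52 to 0.08) and 47.2 and 27.6 CPM in cluster 13 (-0.77, -1.66 to 0.17), with intervals that include 0 in both. With both clusters weighted equally, the pooled log2 ratio of Tnc was -0.15 and not 0.57, and that of Hapln1 was -0.37 and not -0.60, no longer past 1.5-fold. Hapln1 was also within 1.5-fold with doublets kept (-0.36). Tnc itself was among the 10 leading genes of cluster 13, and over all genes 18.2% in cluster 8 and 27.1% in cluster 13 were past 1.5-fold.

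**Figure D4:**
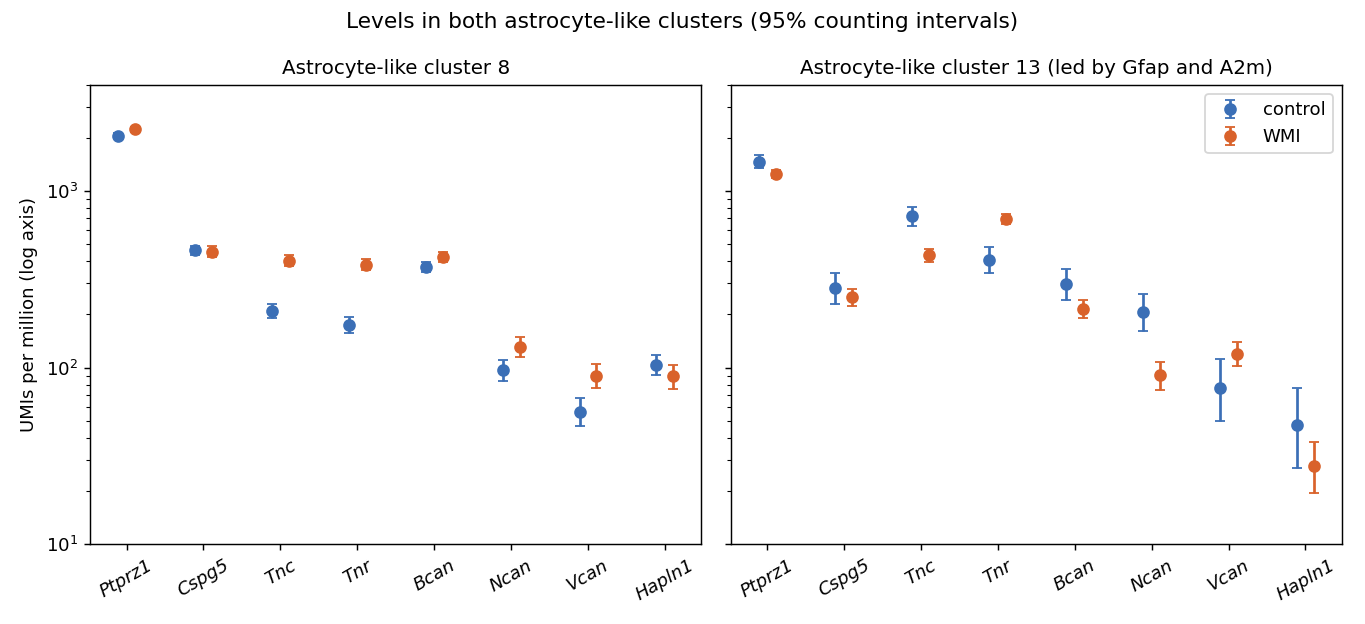
Levels of 8 genes in astrocyte-like cluster 8 (left) and cluster 13 (right), in CPM on a log axis, with 95% counting intervals, for the control (blue) and the WMI library (orange). Tnc and Ncan are higher in the WMI library in cluster 8 and lower in cluster 13, while Tnr and Vcan are higher in the WMI library in both.

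Interneuron-like cells had 1 of 8 genes past 1.5-fold between the libraries, Hapln1, beside 11.8% of 10828 genes. It was 18.5 CPM (14.8 to 22.8) in the control and 37.6 CPM (31.5 to 44.4) in the WMI library, a log2 ratio of 1.02 (0.62 to 1.43). Most of its UMIs came from the Adarb2 cluster, a type of caudal origin, with 43.1 and 74.9 CPM (0.80, 0.33 to 1.28), while the Lhx6 cluster had 10.6 and 7.34 CPM and the Sst cluster 6.53 and 12.01 CPM. The Adarb2 cluster also held 143 of 470 control but 167 of 380 WMI interneuron-like cells. Microglia-like cells had 12.2 and 13.3 CPM of Hapln1.

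The interneuron clusters differed more in some genes than the libraries did. Tnr was 525 and 529 CPM in the Lhx6 cluster, 342 and 406 CPM in the Sst cluster, and 149 and 268 CPM in the Adarb2 cluster. Only the first lay clearly above microglia-like cells in both libraries. Whether the Lhx6 cluster contains the future parvalbumin cells that perineuronal nets enclose was not tested. Ptprz1 was instead highest in the Adarb2 cluster, with 406 and 494 CPM. It was 237 and 242 CPM in the Lhx6 cluster and 212 and 237 CPM in the Sst cluster. Acan, the core lectican of perineuronal nets, had 30 of its 31 control UMIs in the Lhx6 cluster (13.8 CPM) and 7 of 10 in the WMI library (5.71 CPM). At this depth Acan was too sparse for a ratio in interneuron-like cells.

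Among the other classes, excitatory neuron-like cells had Tnr at 438 and 506 CPM, 1.54-fold and 1.21-fold the microglia-like level. Over 13 clusters with at least 30 cells in each library, Tnr ranged from 218 to 924 CPM in the control and from 260 to 987 CPM in the WMI library, and the same cluster, with Tshz2 among its leading genes, was highest in both. Neuroblast-like cells (62 and 126) held Vcan at 203 and 224 CPM and Ptprz1 at 523 and 563 CPM, 3.69-fold and 4.11-fold, and 2.82-fold and 2.61-fold, the microglia-like levels. Fibroblast-like cells showed 3 of 3 genes past 1.5-fold, against 17.1% of 2826 genes. These were Tnr (180.0 and 272 CPM), Ptprz1 (125 and 201 CPM) and Cspg5 (58.0 and 87.1 CPM), and all 6 levels were below those of microglia-like cells. Acan was at 0 UMIs in both fibroblast-like groups, which allows up to 9.15 and 8.16 CPM.

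**Figure D5:**
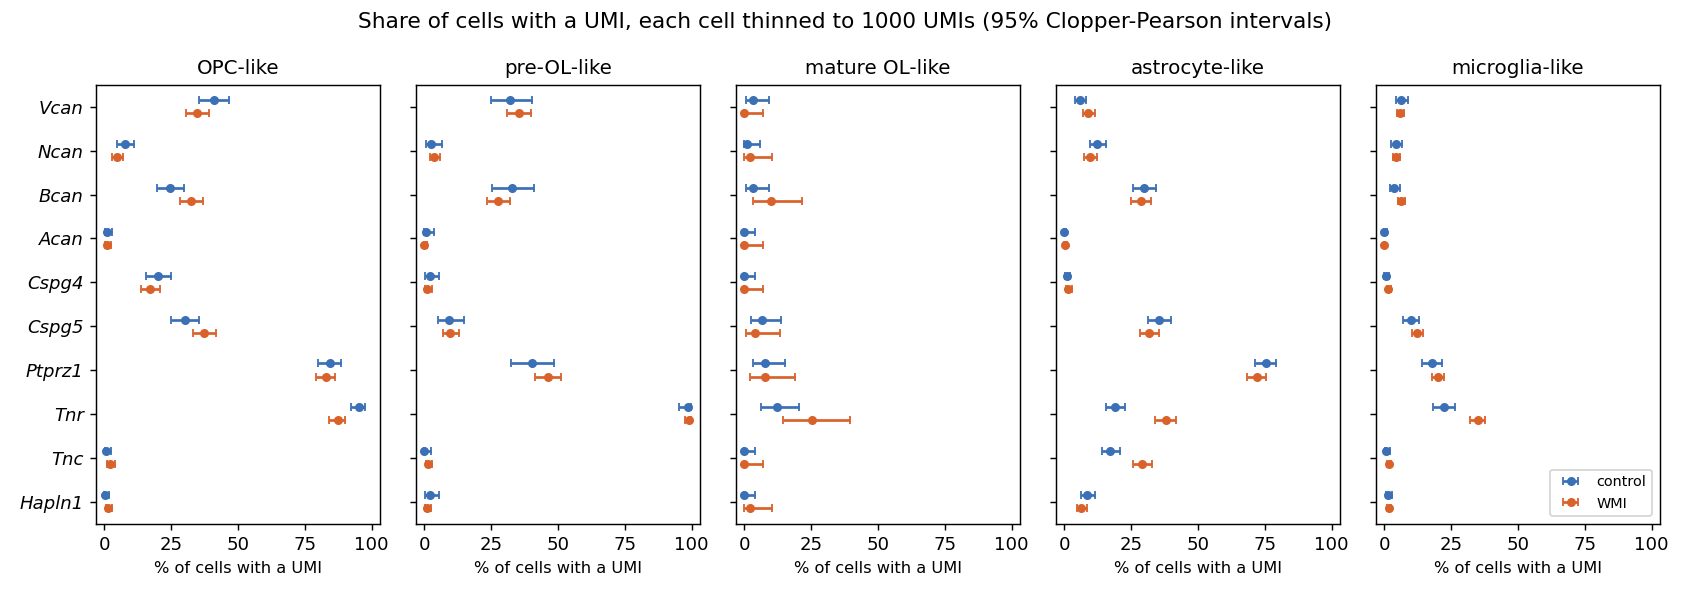
Percent of cells with at least 1 UMI after thinning each cell to 1000 UMIs, for the 10 genes in OPC-like, pre-OL-like, mature OL-like, astrocyte-like and microglia-like cells of the control (blue) and WMI library (orange), with 95% Clopper-Pearson intervals. Tnr is found in 98.7% and 99.1% of pre-OL-like cells and in 22.1% and 34.9% of microglia-like cells, the class taken as the measure of free RNA.

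Genes that build and sulfate chondroitin sulfate chains, that degrade or bind the matrix, or that are further parts of it were taken from 6 lists. The list of degrading enzymes holds proteases such as Adamts4, hyaluronidases such as Cemip2 and protease inhibitors such as Timp3. Its counts are therefore not counts of chain-cutting enzymes alone. Of the enzymes of chain synthesis, 0 of 9 measured in OPC-like and 0 of 8 in pre-OL-like cells were past 1.5-fold, with medians of 0.234 and 0.00737. Sulfation and epimerization enzymes had 0 of 4 and 0 of 3. Degrading enzymes had 2 of 9 higher in OPC-like cells, and in pre-OL-like cells 2 of 7 higher and 2 lower. Receptors and partners had 0 of 13 in OPC-like cells, and in pre-OL-like cells 1 of 12 higher and 3 lower. Hyaluronan synthases and other link proteins had only 1 gene measured in OPC-like cells, not past 1.5-fold, and 0 measured in pre-OL-like cells. The list of other tenascins and of small or membrane proteoglycans had 0 of 5 in OPC-like and 1 of 5 lower in pre-OL-like cells. No tenascin of that list had enough UMIs in either class, and neither did Dcn, Bgn, Lum or Epyc, so these counts do not cover them. Smc3 was among the 5 genes counted in each class. In mature OL-like cells 5 of 24 listed genes were higher and 2 lower, and in astrocyte-like cells 8 of 41 were higher and 5 lower. Over all lists, 2 of 41 genes in OPC-like and 9 of 35 in pre-OL-like cells were past 1.5-fold in either direction. Over all genes the shares in either direction were 12.2% in OPC-like, 16.5% in pre-OL-like, 22.6% in mature OL-like and 21.4% in astrocyte-like cells.

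The listed genes that stood highest in a class against the mean of the others differed by class. Xylt1, which starts the chain with xylose, was 2157 and 2063 CPM in OPC-like cells against means of 309 and 301 CPM in the other classes, and Chst11, a chondroitin 4-O-sulfotransferase, 688 and 610 CPM against 97.3 and 90.2 CPM. Other chain synthesis genes had other orders: Csgalnact1, which starts the repeating chain, was 200.1 and 247 CPM in OPC-like, 560.3 and 816 CPM in pre-OL-like and 366 and 393 CPM in astrocyte-like cells, and Chsy3 was 387 and 301 CPM in OPC-like and 502 and 633 CPM in mature OL-like cells. Ust, a uronyl 2-O-sulfotransferase, was 2335 and 2415 CPM in pre-OL-like cells against 179 and 220.0 CPM elsewhere, with Nfasc, a node adhesion molecule, next. Adamts4, a protease that cuts lecticans, led in mature OL-like cells with 192 and 381 CPM against 10.48 and 8.90 CPM. Adamts9, a related protease, was 99.0 and 279 CPM in astrocyte-like cells, Dcn, decorin, 232 and 392 CPM in fibroblast-like cells, and Spock3, a testican, 591 and 692 CPM in interneuron-like cells. The second genes were Nfasc again in mature OL-like, Nrcam in astrocyte-like, Egfr in fibroblast-like and Cemip in interneuron-like cells.

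The listed genes at the ends of the ratios differed by class. In OPC-like cells Hexa, a lysosomal enzyme subunit (19.1 and 43.2 CPM, log2 ratio 1.18, 0.58 to 1.81), was among the highest, and the phosphatase Ptprd (-0.52) and Smc3 (-0.51) were lowest. The 8 microglial markers summed to 159 CPM in control and 453 CPM in WMI OPC-like cells, and their part in the Hexa ratio was not tested. In pre-OL-like cells Hexa (1.65) was highest, and Cemip2, a cell-surface hyaluronidase (402 and 53.7 CPM, -2.91, -3.22 to -2.60), and Cntn1, an adhesion partner of Ptprz1 (1024 and 586 CPM, -0.80), were lowest. Mature OL-like cells had Cemip2 (54.6 and 837 CPM, 3.94, 3.47 to 4.44) and Chst3, a 6-O-sulfotransferase (1.06), highest, and Csgalnact1 (-0.99) and Nrcam (-0.61) lowest. The WMI values of this class come from 51 cells, and the share of the Cemip2 UMIs in its richest cells is not given. The 8 pre-OL markers were 1913 CPM in its control and 4126 CPM in its WMI cells, and their part in the Cemip2 ratio was not tested. Astrocyte-like cells had Cd44, the hyaluronan receptor (12.5 and 102 CPM, 3.03, 2.49 to 3.61), highest, and Itgav, an integrin subunit (231 and 106 CPM, -1.13), and Chsy3, a chondroitin synthase (-0.70), lowest. The 8 microglial markers summed to 137 and 420.4 CPM in pre-OL-like and to 168 and 475 CPM in astrocyte-like cells, and their part in the Hexa and Cd44 ratios was not tested.

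Genes whose pattern over 18 points (9 classes in 2 libraries) was most like that of a member were found among 15269 genes with at least 200 UMIs. The points share libraries and free RNA, so Pearson's r is a description. Tmem255b (r = 0.95), C1ql1 (0.935) and Stk32a (0.894) were most like Cspg4, of which C1ql1 was among the OPC markers. Etv4 (0.96), Nim1k (0.899) and Gm27239 (0.892) were most like Cspg5, and Gm9750 (0.924), Dpf3 (0.923) and Fam69c (0.91) most like Ptprz1. Armh4 (0.923), Gm37731 (0.921) and Gm34923 (0.918) were most like Tnr, of which Gm37731 overlaps Tnr in the annotation, so that reads of both may not be told apart. Gpam (0.959), Gm35552 (0.937) and Cpe (0.932) were most like Tnc, and Frmpd1 (0.871), Acsbg1 (0.851) and Gm26512 (0.847) most like Hapln1. For the lecticans these were Sh3bp4 (0.912), Sema5b (0.906) and Mybl1 (0.888) for Vcan, Gm45263 (0.948), Gpm6a (0.934) and Scg3 (0.921) for Ncan, Asrgl1 (0.901), Gm44897 (0.878) and Grtp1 (0.878) for Bcan, and B3gat2 (0.908), Grik4 (0.866) and Pcdh11x (0.863) for Acan.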

How the data were processed

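Barcode tables of 1 control and 1 WMI library were used. The authors deposited UMI counts per gene and barcode, made with Cell Ranger 6.1.1 per the file headers. The submitters' processing notes name mm9 and Seurat, while all 55450 gene IDs matched GENCODE M21 on GRCm38. Whether intronic reads were counted is not given in the sources used here. Barcodes with over 1000 UMIs, over 500 genes and at most 10% mitochondrial UMIs were kept, and simulated doublets (scikit-learn 1.9.0) marked 785 control and 542 WMI barcodes for removal. Of 500 artificial doublets added to each library, 413 and 389 were found. The doublet scores did not leave out the 10 genes. Libraries were integrated and clustered with Seurat 5.3.0 (R 4.3.3, 2000 genes, 30 dimensions, resolution 0.8), without the 10 genes, the listed genes and cell-cycle genes. Clusters with fibroblast, mural or endothelial markers were clustered again on their own (scanpy 1.11.5), which gave the fibroblast-like class. Clusters were named from marker lists. UMIs were summed per class and library (Python 3.11.15, scipy 1.17.1), with exact Poisson, conditional binomial and Clopper-Pearson 95% intervals. Coverage of the ratio intervals was checked only on simulated independent Poisson counts for OPC-like cells. Such counts leave out the gathering of UMIs in few cells, so the check does not bear on it. Library ratios needed 50 UMIs over both libraries and a class 30 cells in each. The floor of a count of 0 was 3 UMIs. What a count of 0 is said to allow is therefore 3 UMIs, or 3 cells for a share, over the total. It is not the upper end of a 95% interval. Named genes are the 10 members, the 2 highest and 2 lowest listed genes of each class described, the 2 most class-specific listed genes, and the 3 genes most like each member. A listed gene that this rule names is not reported here. The members and lists were chosen with earlier results of these data known. The labels give 1 library per group, while the paper speaks of several replicates per group. Alternatives covered doublets, resolution, integration, denominators, cell filters, sex, cluster weights, UMI minimums and the fold. Leaving out the 3 richest cells was chosen after seeing the data.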

Additional observations from a re-analysis of the deposited data

Results flagged for a closer look

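In astrocyte-like cells the log2 ratio of WMI to control for Tnc was 0.94 in cluster 8 and -0.73 in cluster 13, a difference of 1.68, and the difference was not tested. Hapln1 had a ratio of 1.02 in interneuron-like and -0.60 in astrocyte-like cells, which differ by 1.62 (not tested).

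Among the listed genes, Cemip2 had a ratio of 3.94 in mature OL-like (51 WMI cells) and -2.91 in pre-OL-like cells, a difference of 6.84 that was not tested. Over the whole OL lineage its level was 141 CPM in the control and 122 CPM in the WMI library. Cntn1 had a ratio of 0.98 in mature OL-like and -0.80 in pre-OL-like cells, which differ by 1.78 (not tested). Itgav had a ratio of 0.79 in pre-OL-like and -1.13 in astrocyte-like cells, a difference of 1.91 (not tested).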

How the results depend on the processing

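No paired analysis was possible because each group has 1 library, and no library could be left out. Counts of members past 2-fold between OL stages kept within 1.5 times of their value under all alternatives run. The number past 1.5-fold between libraries depended on the settings. In OPC-like cells (2) it was 1 with cells up to 1% mitochondrial UMIs or a fold of 2, and 0 with cells of a Y-linked UMI and none of Xist or a minimum of 200 UMIs. In pre-OL-like cells (1) it was 0 with libraries merged without integration, with the 1% limit, with the Y-linked cells, with 200 UMIs and with a fold of 2, and 2 with a minimum of 20 UMIs. In mature OL-like cells (3) it was 1 with the Y-linked cells and 1 with 200 UMIs, 2 merged, with median-ratio size factors, with the mean of each cell's own CPM and with a fold of 2, and 4 with 20 UMIs. In astrocyte-like cells (3) it was 1 with a fold of 2, 2 with clusters weighted equally, and 4 with doublets kept, with the Y-linked cells and with 20 UMIs, and in interneuron-like cells (1) 3 with 20 UMIs. In fibroblast-like cells (3) it was 1 at resolution 0.4, at resolution 1.6, merged, with median-ratio size factors and with the 1% limit, 2 with cells over 2000 UMIs, with the Y-linked cells and with the mean of each cell's own CPM, 5 with 20 UMIs, and 0 with 200 UMIs and with a fold of 2. The other settings run left these counts as they were.

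Apart from Tnc, given last, the ratios named here kept their sign. Tnr ranged from 0.97 to 2.96 in mature OL-like and from 0.89 to 1.47 in astrocyte-like cells, Bcan from 0.13 (merged) to 2.25 in mature OL-like cells, and Hapln1 from 0.65 to 1.32 in interneuron-like and from -0.74 to -0.36 in astrocyte-like cells. Tnc in astrocyte-like cells was -0.15 with clusters weighted equally and 0.98 in the Y-linked cells. Causes were not tested, apart from fewer cells or genes where a setting removes them. Depth limits Acan, Tnc outside astrocyte-like and excitatory neuron-like cells, and Hapln1 outside astrocyte-like, interneuron-like and excitatory neuron-like cells. In excitatory neuron-like cells Tnc had 620 and 661 UMIs and Hapln1 342 and 172, with the Hapln1 level below that of microglia-like cells in both libraries.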

Other observations

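Outside the named classes, a cluster led by cell division genes such as Top2a (28 control and 60 WMI cells) carried markers of both microglia and OPCs and was left unnamed. It held Tnr at 2258 and 1937 CPM, Ptprz1 at 1709 and 1395 CPM, Vcan at 411 and 320 CPM, and Cspg4 at 175 and 116 CPM, all below the OPC-like levels of the same library. A second unnamed cluster, led by Ftl1 and mitochondrial transcripts, had 64 control and 1126 WMI cells, with Tnr at 278 and 701 CPM and Ptprz1 at 209 and 366 CPM.

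Over 24 clusters with enough UMIs, the interval of the Tnr ratio lay above 0 in 16 and below 0 in 2, and that of Ptprz1 in 15 and 1. For Bcan and Vcan it lay above 0 in 10 of 22 clusters and below 0 in 1. For Cspg5 it lay above 0 in 6 of 24 clusters and below 0 in 0, and for Ncan above in 3 and below in 3 of 23. For Cspg4 it lay above in 3 and below in 1 of 6, for Tnc above in 2 and below in 1 of 9, for Hapln1 above in 1 and below in 0 of 8, and for Acan below 0 in the 1 cluster measured. The same counts over all genes were not computed, so whether these counts stand apart cannot be judged. The 16 clusters of Tnr include that of microglia-like cells (0.56, 0.40 to 0.72), which was taken as the measure of free RNA. They also include the unnamed cluster led by Ftl1 and mitochondrial transcripts (1.33, 0.97 to 1.72). Clusters of 1 library share its free RNA and are not replicates. In excitatory neuron-like cells Tnc was highest in the same upper-layer cluster in both libraries (24.7 and 54.1 CPM), against 9.29 and 14.6 CPM in microglia-like cells. The log2 ratio of Tnc in that cluster was 1.13 (0.89 to 1.38), from 222 and 385 UMIs.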
